A study of Mus musculus with 8 samples.

Results

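The Slco genes encode the organic anion transporting polypeptides. The account below covers 7 of them, Slco1c1, Slco2a1, Slco2b1, Slco3a1, Slco4a1, Slco4c1 and Slco5a1, in the caudal urogenital ridge of mouse embryos with and without the transcription factor gene Sox11. They are 7 of 19356 genes measured and 7 of the 15 Slco genes with a probe set of their own. They were listed by family name with earlier results of this comparison known. Slco5a1 was chosen by its measured difference between knockout and wild type, so that difference is given as a description and supports nothing. Each of the 7 genes is read by 1 probe set that names no other gene, so no choice between probe sets was needed.

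The tissue was dissected at E10.75 of gestation, when the ureteric bud begins to grow from the nephric duct. There were 4 Sox11 knock-out samples (genotype Sox11-/-) and 4 wildtype samples, untreated, both from mice of a mixed genetic background. Each sample was hybridised to 1 Affymetrix array after ribosomal RNA reduction and cDNA amplification. The replicates are labelled as biological and independent, but the sources used here do not say whether a replicate pooled several embryos, nor which part of Sox11 the allele removes.

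Members of this family sit in the cell membrane and take up large amphipathic molecules without using the sodium gradient. Their known cargoes include thyroid hormones, prostaglandins, steroid sulphates, bile salts and many drugs. In the adult kidney and liver they serve the clearance of such compounds, and at the blood-brain barrier they carry thyroid hormone. The substrate of Slco5a1 is poorly known.

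Values are log2 signals normalized by the authors with RMA, so 1 unit is a doubling of signal. A difference is the knockout mean minus the wild type mean, with the standard error (SE), the 95% interval and the p-value of limma's moderated fit, with Benjamini-Hochberg adjustment across all 19356 genes. The threshold was an adjusted p of 0.05. Signals of different genes come from different probes and are not set against each other as amounts of RNA. In dissected tissue, fewer cells of a type and less RNA per cell cannot be told apart.

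Sox11 itself, the targeted gene, had a log2 signal of 9.10 ± 0.13 in knockout and 11.79 ± 0.06 in wild type ridges (SD, n = 4 each), and no knockout array reached a wild type array. Across genes, Pearson's r between arrays ran from 0.987 to 0.995. Eif2s3y and Kdm5d, both on the Y chromosome, were high on knockout arrays 3 and 4 and on wild type array 1, so embryo sex was not evenly spread. Over all genes the median difference between genotypes was 0.00 and the middle 95% of genes lay between -0.34 and 0.31.

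Slco5a1, chosen by this contrast, had a log2 signal of 5.85, 6.21, 6.11 and 6.34 on the 4 knockout arrays, against 7.36, 7.68, 7.36 and 7.31 on the 4 wild type arrays. The genotypes did not overlap, and the highest knockout array lay 0.97 below the lowest wild type array. The mean was 6.12 ± 0.21 in knockout and 7.43 ± 0.17 in wild type ridges (SD, n = 4 each). The difference was -1.30 (SE 0.12, 95% interval -1.56 to -1.05), a 2.47-fold lower signal, and only 8 of all 19356 genes differed further downwards. The wild type mean stood at the 48.3rd percentile of all genes' signals and the knockout mean at the 20.8th, in the low part of the range where RMA signals can understate differences.

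Of the 7 genes, Slco5a1 was the 1 that passed limma's threshold, where 1.44% of all genes passed (1.08% lower and 0.362% higher). Genotypes did not overlap for Slco5a1 and Slco1c1, which is 2 of 7, where this held for 10.5% of all genes (6.47% with the knockout below and 4.04% with it above). An unadjusted limma p under 0.05 was found for 5 of 7 (Slco5a1, Slco3a1 and Slco4c1 lower, Slco1c1 and Slco2b1 higher), against 16.7% of all genes (9.38% lower and 7.29% higher). Since the 7 were listed with this comparison known, nothing is read from these counts. The median difference of the 7 was -0.09 and that of the 6 without Slco5a1 was -0.02, with a range from -0.30 to 0.32.

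**Figure D1:**
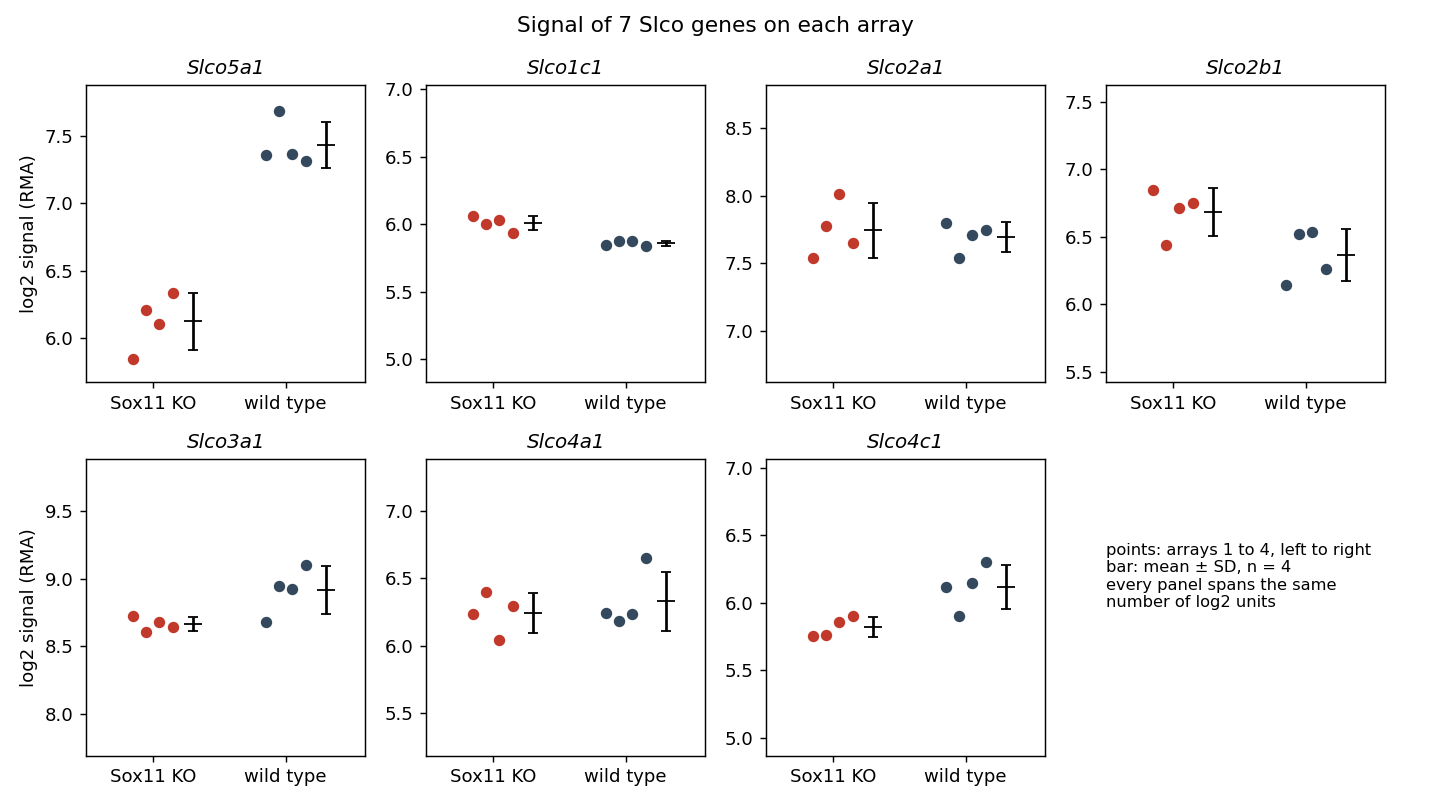
Log2 signal (vertical axis, RMA units) of the 7 Slco genes on each array, with Sox11 knockout arrays in red on the left and wild type arrays in dark blue on the right of each panel; points are arrays and bars the mean ± SD (n = 4). All panels span the same number of log2 units, so the separation of the genotypes in Slco5a1 (5.85 to 6.34 in knockout, 7.31 to 7.68 in wild type) can be compared with the small shifts of the other 6 genes.

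Slco4c1 and Slco4a1 belong to one subfamily. Slco4c1 in the adult kidney is a basolateral transporter of the proximal tubule that takes up cardiac glycosides and thyroid hormone in human and rat. Its log2 signal was 5.75, 5.76, 5.86 and 5.90 in knockout ridges, against 6.12, 5.90, 6.15 and 6.30 in wild type ridges. The highest knockout array and the lowest wild type array met at 5.90, and the other arrays kept apart. The difference was -0.30 (SE 0.09, 95% interval -0.49 to -0.10), with a limma adjusted p of 0.130, so it did not pass. Both means, 5.82 ± 0.07 in knockout and 6.12 ± 0.17 in wild type (SD, n = 4 each), lay in the lowest 25% of all genes' signals.

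Slco4a1 in human carries thyroid hormones and taurocholate and is widely expressed. Its log2 signal was 6.24, 6.40, 6.04 and 6.30 in knockout ridges, against 6.24, 6.19, 6.24 and 6.65 in wild type ridges. The genotypes overlapped, and wild type array 4 stood apart from the other wild type arrays. The difference of -0.09 (SE 0.11, limma adjusted p = 0.732, 95% interval -0.34 to 0.17) became 0.02 without that array. Neither gene of the subfamily was called.

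Slco3a1, known in human as a broadly expressed transporter of prostaglandins and thyroxine, gave a signal at the 66.7th percentile of all genes. It was 8.72, 8.61, 8.68 and 8.64 in knockout ridges, against 8.68, 8.95, 8.92 and 9.10 in wild type ridges. All but 1 wild type array lay above the knockout arrays, and wild type array 1 fell among them. The difference was -0.25 (SE 0.09, 95% interval -0.45 to -0.05) and did not pass (limma adjusted p = 0.200). The knockout arrays spread less, with an SD of 0.05 against 0.18 in wild type.

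The subfamily 2 genes take up prostaglandins (Slco2a1) and, in human, steroid sulphates (Slco2b1). Slco2a1, known as the prostaglandin transporter, had a log2 signal of 7.54, 7.78, 8.01 and 7.65 in knockout ridges, against 7.80, 7.54, 7.71 and 7.75 in wild type ridges. These overlapped, with knockout arrays at both ends of the range. The difference was 0.05 (SE 0.10, limma adjusted p = 0.847), with a 95% interval from -0.18 to 0.28. The sign turned in 2 of 19 alternatives, to -0.04 without knockout array 3 and to a smaller negative difference without wild type array 2.

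Slco2b1 had a log2 signal of 6.84, 6.44, 6.71 and 6.75 in knockout ridges, against 6.14, 6.53, 6.54 and 6.26 in wild type ridges. All but 1 knockout array lay above the wild type arrays, and knockout array 2 fell among them. The difference of 0.32 (SE 0.11, 95% interval 0.07 to 0.57) was the largest on the higher side of the family and did not pass (limma adjusted p = 0.199).

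Slco1c1 is the high-affinity thyroxine transporter of brain endothelium and choroid plexus. Its log2 signal was 6.06, 5.999, 6.03 and 5.94 in knockout ridges, against 5.84, 5.87, 5.87 and 5.84 in wild type ridges. The 4 knockout arrays all lay above the 4 wild type arrays, by a gap of 0.06. The SD was 0.052 in knockout and 0.02 in wild type, and the pooled spread was among the lowest 1% of all genes (0.858th percentile). The difference of 0.15 (SE 0.06, 95% interval 0.02 to 0.28) did not pass (limma adjusted p = 0.244), and the signal was in the lowest 25% of all genes.

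The other 8 measured Slco genes, of subfamilies 1 and 6, differed by -0.20 (Slco6b1) to 0.11 (Slco1b2) with a median of -0.05. Limma called 0 of these 8, and 1 (Slco6b1, lower) had an unadjusted p under 0.05, against 1.44% and 16.7% of all genes. Their signals were low, with 7 of the 8 in the lowest 25% of all genes and Slco1a1 at the 25.4th percentile. Slco1b2 and the Slco1a genes are transporters of the adult liver and barrier tissues.

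**Figure D2:**
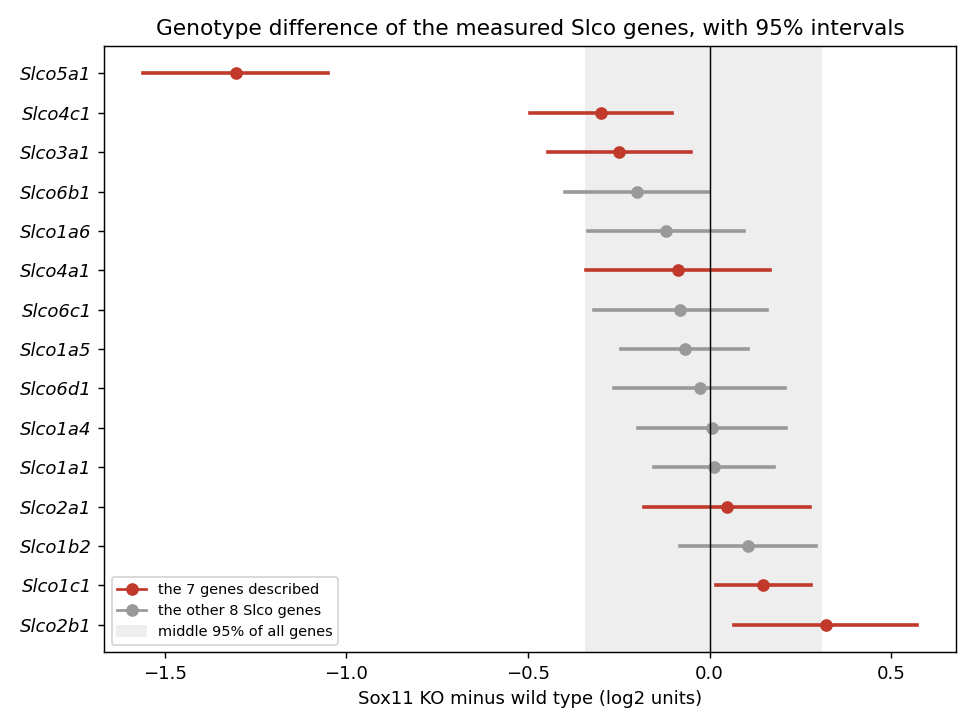
Difference between Sox11 knockout and wild type (horizontal axis, log2 units) of the 15 measured Slco genes, with 95% intervals; the 7 genes described are in red, the other 8 in grey, and the shaded band holds the middle 95% of all genes. Slco5a1 at -1.30 lies below the band, and Slco2b1 at 0.32 lies just above its upper bound of 0.31.

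The promoters of these genes were read from RefSeq on GRCm38.p6, where 5 of the 7 genes matched and Slco5a1 and Slco3a1 were not among them. The sequences shown are those of Slco1c1, whose arrays did not overlap between genotypes, and of Slco4c1, which had the largest downward difference of the 7 after Slco5a1. Each is the 250 bases before the annotated start, 5′ to 3′ on the gene's own strand, at chr6:141524104-141524353 (plus strand) and chr1:96872172-96872421 (minus strand). Capitals mark AACAAAG or AACAAT, forms of the short motif that Sox proteins bind, searched on both strands and written as they read on the gene's strand.
Slco1c1: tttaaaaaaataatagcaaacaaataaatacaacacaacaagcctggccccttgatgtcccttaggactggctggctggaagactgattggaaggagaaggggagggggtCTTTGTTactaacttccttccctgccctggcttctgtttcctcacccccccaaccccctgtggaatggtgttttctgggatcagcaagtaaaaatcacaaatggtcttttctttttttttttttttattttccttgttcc
Slco4c1: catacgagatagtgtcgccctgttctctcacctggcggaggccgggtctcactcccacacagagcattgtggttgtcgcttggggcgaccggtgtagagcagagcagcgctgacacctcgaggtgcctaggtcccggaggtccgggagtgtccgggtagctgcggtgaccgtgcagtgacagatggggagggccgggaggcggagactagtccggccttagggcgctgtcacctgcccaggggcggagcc
Slco1c1 held 1 match, AACAAAG on the opposite strand, beginning 140 bases before the start. Slco4c1 held 0 matches, and so did the windows of Slco2a1, Slco2b1 and Slco4a1, so that 1 of 8 windows of the 5 genes held either form. Over all 32851 windows of this length in the RefSeq table, 13.8% held at least 1 of the 2 forms, 5.03% AACAAAG and 9.42% AACAAT. A match is a string of letters and no evidence of binding.

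Neighbours of the 7 genes were taken in RefSeq order, as the nearest gene on each side with a probe set of its own. Slco5a1 lies next to Sulf1, with no gene between them, and Sulf1 encodes an extracellular enzyme that removes sulphate from heparan sulphate chains. In humans, loss of both genes together has been described in a skeletal malformation syndrome. Sulf1 differed in the opposite direction to Slco5a1, with a log2 signal of 10.99, 10.49, 10.80 and 10.97 in knockout ridges, against 10.29, 10.41, 10.46 and 10.31 in wild type ridges. All knockout arrays lay above all wild type arrays, by a gap of 0.03. The difference of 0.44 (SE 0.11, 95% interval 0.20 to 0.69) did not pass (limma adjusted p = 0.0807). Of 19 alternatives Sulf1 passed in 1, without knockout array 2, at 0.55 (limma adjusted p = 0.0155). Leaving out 1 array at a time gave 0.38 to 0.55, with limma adjusted p up to 0.206. On the other side of Slco5a1, Prdm14, a regulator of pluripotency and germ cells, differed by 0.17 (SE 0.08, limma adjusted p = 0.350).

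Among the 12 neighbours of the other 6 genes, limma called 0, and 3 (St8sia2, Ntsr1 and Slco6b1, all lower) had an unadjusted p under 0.05. Over all genes 1.44% were called, and 9.38% were lower and 7.29% higher at that unadjusted level. St8sia2, a sialyltransferase gene near Slco3a1, differed by -0.37 (SE 0.13, limma adjusted p = 0.184), the same direction as Slco3a1. Ntsr1, a neurotensin receptor gene beside Slco4a1, differed by -0.37 (SE 0.13, limma adjusted p = 0.194). Slco4c1 and Slco6b1 are near neighbours, and differed by -0.30 and -0.20, both short of the threshold. Slco1c1 and Slco1b2 are adjacent and differed by 0.15 and 0.11. The remaining neighbours, Ryk and Rab6b of Slco2a1, Tpbgl and Olfr521 of Slco2b1, Sv2b of Slco3a1, Mir1a-1 of Slco4a1, St8sia4 of Slco4c1 and Gm10400 of Slco1c1, differed by -0.16 to 0.39, and Gm10400, the highest of them, had an SE of 0.25.

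**Figure D3:**
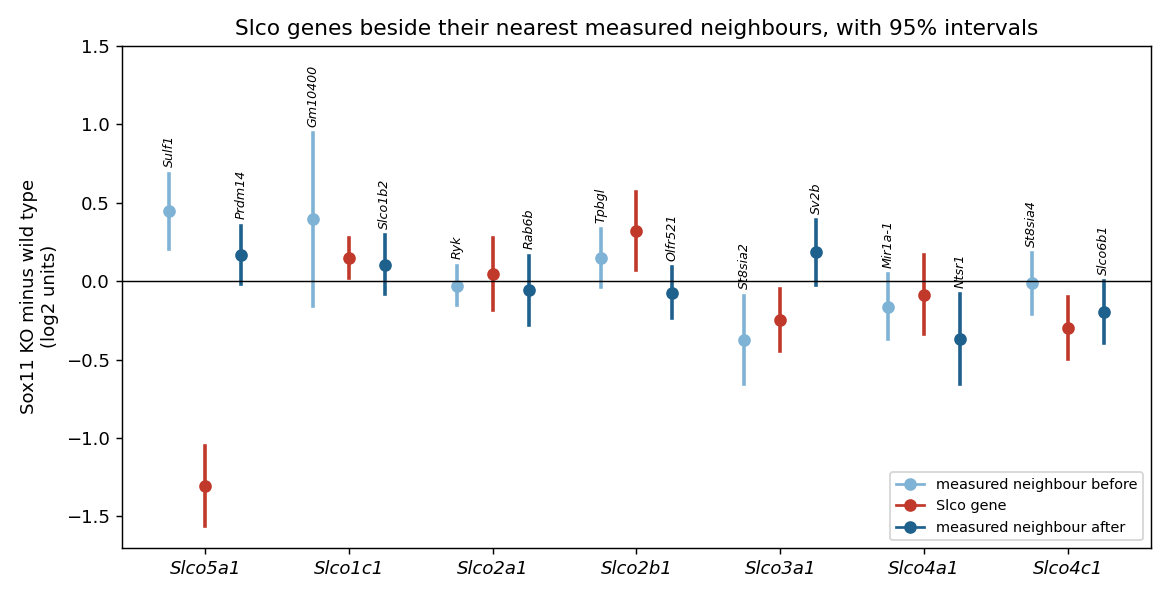
Difference between Sox11 knockout and wild type (vertical axis, log2 units, with 95% intervals) of each of the 7 Slco genes in red and of its nearest measured neighbours in light blue (before) and dark blue (after) in RefSeq order. Slco5a1 at -1.30 stands beside Sulf1 at 0.44 and Prdm14 at 0.17, both on the opposite side of 0.

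The genes most like Slco5a1 over the 8 arrays, by Pearson's r, were Maco1 (0.992), Ska2 (0.985), Map3k9 (0.984), Faxc (0.984) and Zcchc18 (0.977). All 5 were lower in every knockout array than in every wild type array, so r over the 8 arrays includes the genotype difference. The 5 were picked by likeness to a gene chosen by this contrast, on the same arrays. Their differences and p-values are a description and support nothing. Map3k9, a mixed lineage kinase, differed by -0.81, Zcchc18 by -0.78 and Faxc by -0.53, and these passed the threshold (limma adjusted p = 4.53e-04, 0.00194 and 0.00648). Faxc missed it without variance moderation (adjusted p = 0.0563 from the ordinary fit of limma across all genes). Ska2, a subunit of a kinetochore complex, differed by -0.21 and Maco1 by -0.28 without passing (limma adjusted p = 0.108 and 0.0541). Each passed under some alternatives. Maco1 did so with genes above the 25th percentile or the median of level, with trend and robust moderation and with array weights (limma adjusted p down to 0.0251). Ska2 did so with genes above the median level and with trend and robust moderation. Without moderation Ska2 passed too (adjusted p = 0.0265 from the ordinary fit of limma). Once each genotype's mean was subtracted, other genes were most alike: Tnrc6a (0.965), P4hb (0.961), Frmd3 (0.953), Morc2a (0.940) and Msl1 (0.938). Over 8 arrays and 19356 genes such values describe these arrays only. Among the 6 paralogs, r with Slco5a1 after that subtraction lay between -0.55 (Slco1c1) and 0.03 (Slco2b1).

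Genes that handle the same ligands were read from lists, and with 1.44% of all genes called, counts of 0 in lists of this size are near the background. For the unadjusted counts of these lists, the share of all genes under 0.05 was 7.29% higher and 9.38% lower. Of 18 measured genes (of 21 listed) of thyroid hormone transport, deiodination and response, limma called 0, with 2 higher and 2 lower at an unadjusted p under 0.05 and a median of 0.07. Slc7a8, an amino acid carrier that also takes thyroid hormone, had the lowest p and differed by 0.53 (SE 0.14, limma adjusted p = 0.0945). Its mean was 10.13 ± 0.28 in knockout and 9.60 ± 0.19 in wild type ridges (SD, n = 4 each). Dio2, the enzyme that activates thyroxine, differed by 0.24 and the retinoid X receptor gene Rxrb by -0.16 (limma adjusted p = 0.207 and 0.224).

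Of 23 measured prostaglandin genes (of 24 listed) limma called 0, with 3 higher and 1 lower at an unadjusted p under 0.05 and a median of 0.05. The thromboxane receptor gene Tbxa2r differed by 0.26, the prostaglandin E receptor gene Ptger3 by 0.29 and the prostaglandin D synthase gene Ptgds by 0.16 (limma adjusted p = 0.121, 0.201 and 0.273). Of 11 measured genes (of 13 listed) of steroid sulphate and bile acid handling limma called 0, with 1 higher at an unadjusted p under 0.05 and a median of 0.09, and 8 of the 11 had signals in the lowest 25%. There the bile salt carrier gene Slc10a1, the bile salt export pump gene Abcb11 and the sulphotransferase gene Sult2b1 differed by 0.25, 0.26 and -0.15 (limma adjusted p = 0.243, 0.304 and 0.350).

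Other organic ion carriers were read in the same way. Of 13 measured Slc22 genes (of 15 listed) limma called 0, with 1 higher at an unadjusted p under 0.05 and a median of 0.06, and Slc22a21, a carnitine carrier, differed by 0.27 (limma adjusted p = 0.164). Slc22a12 and Slc22a6, kidney carriers of urate and organic anions, differed by 0.19 and 0.15 (limma adjusted p = 0.364 and 0.408). Of 11 ABC exporters, all measured, limma called 0, with 1 higher at an unadjusted p under 0.05 and a median of 0.05. Abcc3, an exporter of organic anion conjugates, had a mean of 7.07 ± 0.06 in knockout and 6.86 ± 0.10 in wild type ridges (SD, n = 4 each), a difference of 0.20 (SE 0.07, limma adjusted p = 0.186). Abcb1a and Abcc1 differed by 0.18 and -0.07 (limma adjusted p = 0.374 and 0.593).

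**Figure D4:**
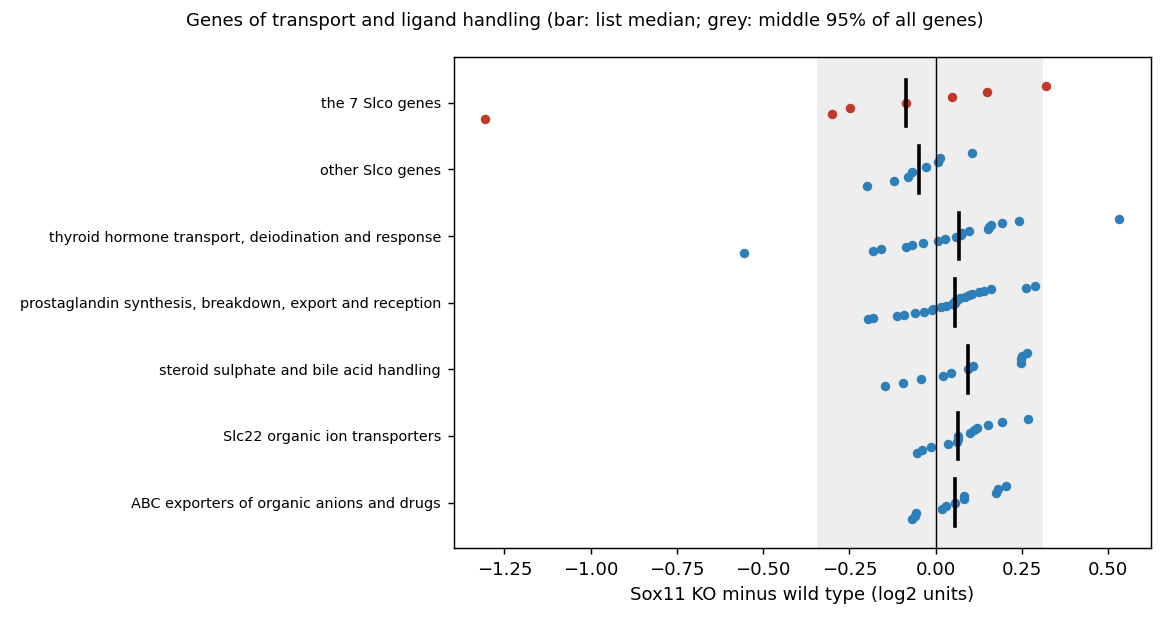
Difference between Sox11 knockout and wild type (horizontal axis, log2 units) of each measured gene in the 7 Slco genes (red) and in 6 lists of transport and ligand-handling genes (blue); black bars are list medians and the shaded band holds the middle 95% of all genes. List medians lie between -0.09 and 0.09, and Slco5a1 at -1.30 is the farthest point from 0.

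Markers of cells that a dissected ridge may hold were read beside these genes. Of 13 measured neuronal markers, 10 lay below 0 with a median of -0.21. Limma called 1, Dcx, lower (-0.93, limma adjusted p = 0.0384), where 1.44% of all genes were called. Elavl4 and Stmn2 differed by -0.30 and -0.64. At an unadjusted limma p under 0.05, 4 of the 13 were lower and 0 higher, against 9.38% and 7.29% of all genes. Dcx missed the threshold without any 1 array but knockout array 3 (limma adjusted p up to 0.113). It did so too with the Y-linked covariate and with every probe set tested (limma adjusted p = 0.0508 and 0.0581). The same held with ordinary variances (adjusted p = 0.155 from the ordinary fit of limma). The summed signal of the neuronal markers ran from 3407 to 4099 in knockout and from 3465 to 4939 in wild type ridges. That sum is weighted to Isl1, the highest signal of the list (mean 10.35), which differed by 0.26 (limma adjusted p = 0.622). Neurod1 and Stmn4 were in the lowest 25% of signals. The neuronal mean log2 signal was 7.66, 7.34, 7.45 and 7.52 on knockout arrays 1 to 4, against 7.83, 7.84, 7.61 and 7.60 on wild type arrays 1 to 4, so the genotypes overlapped. The part of the neuronal markers in the difference of Slco5a1 was not tested.

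Kidney primordium markers differed in both directions. Of 13 nephric duct markers 11 lay above 0 with a median of 0.16, and 1, Ret, was called higher. At an unadjusted limma p under 0.05, 5 of these 13 were higher and 0 lower. The summed signal of the list was 10866 to 11833 in knockout against 8427 to 10560 in wild type ridges, without overlap. That sum is weighted to Calb1, the highest signal of the list, which differed by 0.63 (limma adjusted p = 0.0624). The mean log2 signal, which weights genes equally, was 9.25 to 9.37 in knockout against 8.97 to 9.22 in wild type ridges. Of 13 metanephric mesenchyme markers 8 lay below 0 with a median of -0.20, and 1, Six2, was called lower. At an unadjusted limma p under 0.05, 6 of these 13 were lower and 1 higher. Over all genes 1.44% were called, and 9.38% were lower and 7.29% higher at that unadjusted level. The summed signal of the mesenchyme list was 16636 to 17478 in knockout against 18144 to 19284 in wild type ridges, also without overlap. That sum is weighted to Osr1 and Eya1, the highest signals of the list, which differed by 0.12 and -0.28 (limma adjusted p = 0.604 and 0.0609). Meox1 differed furthest, by -0.94 (limma adjusted p = 0.0517), and 5 of the 13 lay above 0. The mean log2 signal of this list was 9.80 to 9.99 in knockout against 10.01 to 10.115 in wild type ridges. Neither list had a marker in the lowest 25% of signals. The calls depended on single arrays and on settings. Ret missed the threshold without knockout arrays 1, 2 or 3 and wild type arrays 2 or 3 (limma adjusted p up to 0.0764). It did so too without moderation (adjusted p = 0.0692 from the ordinary fit of limma). Six2 missed the threshold without any 1 array but wild type array 1 (limma adjusted p up to 0.122). It did so too with further quantile normalization, with the Y-linked covariate and with every probe set tested (limma adjusted p = 0.0610, 0.0797 and 0.0636). The same held without moderation (adjusted p = 0.134 from the ordinary fit of limma). The part of these shifts in the difference of Slco5a1 was not tested.

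Of all genes 1.44% were called and 16.7% had an unadjusted limma p under 0.05, the background for the lists that follow. Endothelial markers, which share a cell type with Slco2a1 and Slco1c1 in adult tissue, had 0 of 14 called and 0 at an unadjusted p under 0.05. They lay above 0 for 12 of 14, with a median of 0.07. Their summed signal was 12143 to 14559 in knockout and 10253 to 13616 in wild type ridges. Macrophage markers, read beside Slco2b1, had 0 of 14 called and 0 at an unadjusted p under 0.05. They lay above 0 for 8 of 14, with a median of 0.02, and only Aif1 was in the lowest 25%. Their summed signal was 2415 to 3176 in knockout and 2312 to 2976 in wild type ridges, so they overlapped. Erythroid, muscle, proximal tubule and brain barrier lists had 0 called of 11, 12, 10 and 10 measured, with medians of -0.22, 0.23, 0.14 and 0.06. In the erythroid list 9 genes lay below 0, and in the other lists 10, 9 and 8 lay above 0. At an unadjusted p under 0.05, 5 of the 11 erythroid genes were lower, where this held for 9.38% of all genes. Of the 12 muscle genes 4 and of the 10 proximal tubule genes 2 were higher at that level, against 7.29% of all genes, and the brain barrier list had 1 in each direction. Rhd and Rhag, of the Rh blood group complex, were lower without overlap (-0.51 and -0.45, limma adjusted p = 0.0827 and 0.126). Without overlap, 2 muscle genes and 1 proximal tubule gene were higher and 1 brain barrier gene lower. Over all genes 6.47% were lower and 4.04% higher without overlap. The part of these markers in the differences of the Slco genes was not tested. The proximal tubule markers, the adult site of Slco4c1, were in the lowest 25% for 5 of 10.

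**Figure D5:**
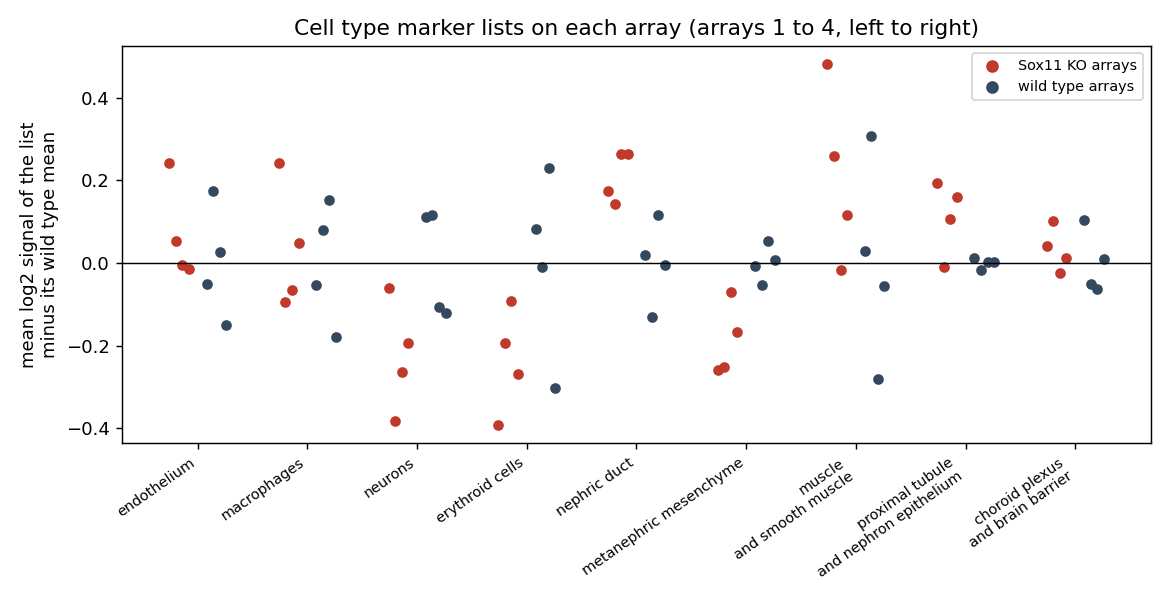
Mean log2 signal of 9 cell type marker lists on each array, shown as the difference from the list's mean over the wild type arrays (vertical axis, log2 units), with Sox11 knockout arrays in red left of wild type arrays in dark blue and arrays 1 to 4 from left to right. Nephric duct markers lie higher and metanephric mesenchyme markers lower on the knockout arrays without overlap, while neuronal markers overlap.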

How the data were processed

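The deposited table holds log2 signals for 27478 probe sets on 8 arrays, made by the authors with RMA; Partek is also named, per the submitters' processing notes. RMA corrects background, quantile-normalizes arrays and sums up probes. The sources used here give no version, setting or genome build. The log2 scale was read from the values (4.30 to 14.62, array medians 7.29 to 7.31). A change common to every transcript would be removed by RMA, and the number of arrays limits the precision.

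Of the probe sets, 21103 had 1 gene symbol in the platform annotation, 1531 several and 4844 none. The probe set with the highest mean was kept for each of 19356 genes, with no filter. The 2 genotypes entered 1 fit across all genes in limma 3.58.1 under R 4.3.3 (lmFit, eBayes, genotype as the only term, two-sided, Benjamini-Hochberg over all genes). The procedure was run on simulated data with independent normal noise for each gene. That setting holds no correlation between genes and no effect of sex or array, so it does not test the calls made here. Alternatives changed the scaling, a filter on low signal, the handling of probe sets, the moderation, array weights, a replicate block or a Y-linked covariate, or left out 1 array. Members, lists and alternatives were chosen with earlier results of these data known. Genes were named by a rule: the 7 genes, the other Slco genes, list members past the threshold or among the 3 lowest p, nearest measured neighbours, and the 5 genes most like Slco5a1 by either measure, predicted genes and clones left out of the last. Same-numbered arrays were not shown to be pairs: the correlations of their deviations were -0.17, 0.09, -0.04 and 0.06. Figures were drawn with matplotlib 3.10.9.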

Additional observations from a re-analysis of the deposited data

Results flagged for a closer look

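Among 32 sets of 4 arrays checked (15 Slco genes and Sox11 in both genotypes), 2 held an array far from the others, where chance gives about 1 in 20. For Slco5a1, wild type array 2 stood at 7.68, against 7.31 to 7.36 on the other wild type arrays, which is away from the knockout arrays, and the difference without it was -1.22. For Slco4a1, wild type array 4 stood at 6.65, against 6.19 to 6.24 on the other wild type arrays, and the difference without it was 0.02.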

How the results depend on the processing

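Slco5a1 stayed past the threshold in all 18 alternatives in which it was tested, with differences from -1.38 to -1.21. The highest adjusted p was 0.0401, from the ordinary fit of limma without moderation. Left out 1 array at a time, it differed by -1.38 to -1.21. Since Slco5a1 was chosen by this difference on the same arrays, these refits describe its dependence on processing and support nothing. With genes above the median level only, Slco5a1 is not tested and 0 of the 7 genes were called. The other 6 genes passed under none of their alternatives, the lowest limma adjusted p being 0.0765 (Slco4c1). Signs turned only for small differences. With a further quantile normalization Slco1a1 was -0.032 and Slco1a4 -0.017, and with array weights Slco1a4 was -0.013. With the Y-linked covariate Slco6d1 was 0.0099. Leaving out 1 array gave -0.041 to 0.056 for Slco1a1, -0.069 to 0.052 for Slco1a4, -0.10 to 0.050 for Slco6d1, -0.042 to 0.12 for Slco2a1, -0.14 to 0.021 for Slco4a1 and -0.081 to 0.010 for Msl1. The count of 279 genes called was 55 without moderation, 151 with the Y-linked covariate, 166 with the replicate block and 107 to 243 without 1 array. In the replicate block fit, Slc7a8 of the thyroid hormone list passed (limma adjusted p = 0.0316), the difference of Slco5a1 stayed at -1.30, and no call among the 7 genes changed. The causes were not tested. Both scalings moved the median of all genes by under 0.01. Low signals limit Slco1c1, Slco4c1 and 7 of the other 8 Slco genes, where RMA can understate differences. Whether it did so here was not tested.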
